A study of Arabidopsis thaliana with 11 samples.

Results

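The genes described are 10 Arabidopsis thaliana genes of iron handling. They are the Ib subgroup bHLH regulators bHLH38 (AT3G56970), bHLH39 (AT3G56980), bHLH100 (AT2G41240) and bHLH101 (AT5G04150), the nicotianamine synthases NAS1 (AT5G04950), NAS2 (AT5G56080), NAS3 (AT1G09240) and NAS4 (AT1G56430), and the ferritins FER1 (AT5G01600) and FER4 (AT2G40300). They were selected by locus identifier from the 28718 loci of the authors' deposited table, and NAS1 was in view as one of the largest falls between no salt and 1x salt. That comparison therefore gives values for these genes and no test. All 10 genes had a probe on the array, and 7 passed the detection filter, which asks for a signal well above background on 3 or more of the 11 arrays.

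In plants, the Ib bHLH factors pair with the regulator FIT and switch on iron acquisition genes when iron is short, and their own transcripts are widely used as markers of that state. Nicotianamine synthases join S-adenosylmethionine units into nicotianamine, a chelator that keeps iron, zinc and copper soluble during transport in the phloem and between cells. Ferritins are protein shells of the plastid that store iron, and FER1 is the ferritin best known for rising with iron excess in leaves.

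All plants were Columbia-0 and all samples were enriched for guard cells, the paired epidermal cells that open and close stomata. Potted plants were soaked for 2 h either with tap water (no salt, 4 samples) or with NaCl. Their age was 4 to 5 weeks when the schedule began, and the labels list the samples at 6 to 7 weeks. The 1x salt group (3 samples) received 200 mM once, over days 13 and 14. The 3x salt group (4 samples) received 75 mM over days 1 and 2, then 150 mM over days 7 and 8, and finally the same 200 mM soak as the 1x group. Every sample was taken on day 15, after 4 h of light. The labels give neither the enrichment method nor whether samples came from separate plants, so the p-values cover sample-to-sample spread alone, and part of it may be technical. Levels are log2 signals relative to the 75th percentile of the same array (0 is that percentile), and levels of different probes are not compared.

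On each array 66.2 to 80.3% of the 43803 non-control spots were well above background. The no-salt array 1 stood apart from the other no-salt arrays (SD of log2 differences over 20317 bright genes 0.294 to 0.323, against 0.157 to 0.194 among the others). The 1x salt array 1 stood apart likewise (0.484 and 0.52, against 0.279 between the others), and the 3x salt arrays fell into the pairs 1 with 2 and 3 with 4 (0.186 and 0.21 within, 0.397 to 0.439 across). The 1x salt array 3 held 442 outlier spots, against 9 to 38 on the others. All 11 guard cell markers were well above background on every array, and so were all 5 mesophyll markers. Detection alone therefore does not tell these cell types apart. A control fit in which the closest arrays of a group were averaged first is given below beside the genes whose call it ended.

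Among the Ib bHLH regulators, bHLH101 was the only gene measured well above background on all 11 arrays. Its log2 signal was -4.30, -3.57, -3.61 and -3.66 on the no-salt arrays 1 to 4. It was -2.24, -3.32 and -2.71 on the 1x salt arrays 1 to 3. It was -2.50, -2.75, -3.51 and -3.49 on the 3x salt arrays 1 to 4. Every salt array lay above every no-salt array, with the 1x salt array 1 highest and the no-salt array 1 lowest. The mean difference was 1.03 (SE 0.32) for 1x salt against no salt and 0.72 (SE 0.30, 95% interval 0.05 to 1.39) for 3x salt against no salt. The latter did not pass limma's test across all genes (adjusted p = 0.0672), although the groups did not overlap, which 28.1% of all genes showed in that direction. Without the 3x salt array 3 it was 0.87 and passed (adjusted p = 0.0466), and without the no-salt array 1 it was 0.55 (adjusted p = 0.168).

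The bHLH101 difference was uneven across slides. On slide 1, which held array 1 of each group, 1x salt exceeded no salt by 2.06 and 3x salt exceeded no salt by 1.80. On slide 2 the 1x salt excess was 0.25, on slide 4 it was 0.90, and on slide 6 the 3x salt excess was 0.17. In the authors' deposited table, which is on a log2 scale of its own, bHLH101 stood at 6.54, 7.25, 7.44 and 7.37 without salt. It stood there at 8.61, 7.41 and 8.10 after 1x salt, and at 8.34, 8.15, 7.53 and 7.44 after 3x salt. In that table the groups overlapped, since the 1x salt array 2 lay below the no-salt array 3 and the 3x salt array 4 lay at the level of the no-salt array 3. 3x salt and 1x salt differed in bHLH101 by -0.31 (95% interval -1.03 to 0.42, limma adjusted p = 0.487).

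bHLH38, a close relative encoded next to bHLH39, was near the detection limit and well above background on 4 arrays. Its log2 signal was -6.45, -6.16, -6.64 and -6.28 without salt, where array 4 alone was above background. It was -5.46, -6.03 and -5.48 after 1x salt, with arrays 2 and 3 above background. It was -6.27, -5.70, -7.67 and -7.08 after 3x salt, with array 2 above background. The 1x salt arrays lay above all no-salt arrays, and the 3x salt arrays spread on both sides of them. The 1x salt mean exceeded the no-salt mean by 0.72 (SE 0.39), but the sign turned with normexp background correction (-0.02) and in the authors' deposited table (-0.06). 3x salt differed from no salt by -0.30 (95% interval -1.11 to 0.52, limma adjusted p = 0.522) and from 1x salt by -1.02 (95% interval -1.90 to -0.14, adjusted p = 0.0645). Without the 3x salt array 2 the latter was -1.35 (limma adjusted p = 0.0112). The difference from no salt was -0.63 without the 3x salt array 2, -0.16 without array 4 and 0.03 without array 3, so its sign rested on 1 array.

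bHLH39 was not well above background on any array, with processed signals of 3.40 to 9.35 intensity units. bHLH100 was above background on the 1x salt array 3 alone. Its processed signals were 3.35 to 13.7 units without salt and 10.7, 14.3 and 44.5 units on the 1x salt arrays 1 to 3. After 3x salt they were 3.23 to 6.86 units. No fold or test is given for either gene. The probes of these related genes may hybridise to one another's transcripts, which was not tested.

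**Figure D1:**
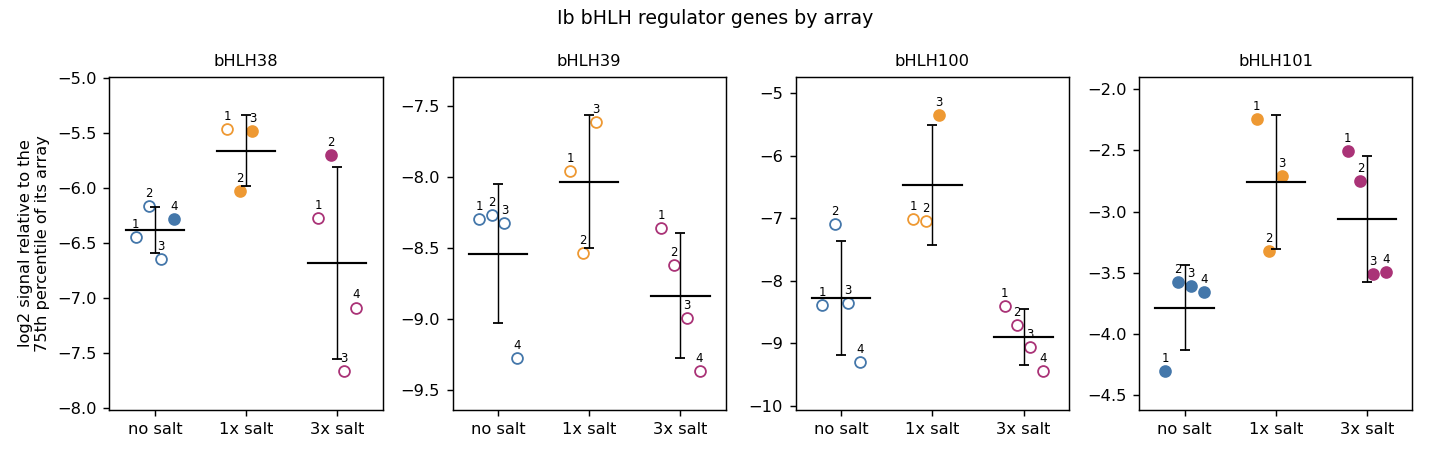
Log2 signal relative to the 75th percentile of the array (vertical axis) for the 4 Ib bHLH genes in each group, with 1 numbered point per array, the mean and the SD as a bar. Open points are not well above background. Each panel has its own scale. For bHLH101 all salt arrays lie above the no-salt arrays, and for bHLH39 all 11 points are open.

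NAS1 and NAS4 had the largest differences from no salt among the 7 genes that passed the filter. NAS1 had a log2 signal of -3.62, -3.39, -3.36 and -3.39 on the no-salt arrays 1 to 4. On the 1x salt arrays 1 to 3 it was -6.72, -8.45 and -7.83, in no case well above background. On the 3x salt arrays 1 to 4 it was -5.34, -5.03, -6.05 and -6.37, all above background. The groups did not overlap in any pairing, and the 3x salt arrays lay between the other groups.

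In processed intensity units NAS1 read 109 to 201 without salt, 5.38 to 13.1 after 1x salt and 27.2 to 87.5 after 3x salt. The means of 1x salt and no salt differed by -4.23 on the log2 scale (SE 0.40), which ranked 4 among 23443 genes ordered from the largest fall. Because no 1x salt array measured the gene above background, that difference is stated as a bound, at least 7.39-fold lower, in which each 1x salt array counts at its lowest signal above background. Within slides 1, 2 and 4 the difference was -3.11, -5.05 and -4.47. It was -1.60 with normexp and quantile normalisation and -2.82 in the authors' deposited table. In bulk samples such as these, fewer cells of a type and less RNA per cell cannot be told apart.

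NAS1 was also lower after 3x salt than without salt, with a log2 difference of -2.26 (SE 0.37, 95% interval -3.09 to -1.43, limma adjusted p = 0.000759). This comparison shares the no-salt arrays with the one in which NAS1 was chosen. Within slide 1 it was -1.72 and within slide 6 it was -2.98. Without the no-salt array 1 it was -2.32 (limma adjusted p = 0.00213). With the closest arrays averaged first, a fit that called 15.3% of all genes, it was -2.20 and did not pass (limma adjusted p = 0.0582). NAS1 was 1.97 higher on the log2 scale after 3x salt than after 1x salt, stated as at least 1.55-fold higher and without a test. In the authors' deposited table NAS1 stood at 7.42, 7.79, 7.86 and 7.80 without salt. It stood there at 5.34, 4.67 and 4.67 after 1x salt, and at 6.16, 6.45, 5.62 and 5.62 after 3x salt. The order of the groups and their separation were those of the scanner values.

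NAS4 was well above background on all arrays. Its log2 signal was -2.10, -1.42, -1.48 and -1.36 on the no-salt arrays. It was -3.001, -3.64 and -2.83 on the 1x salt arrays, and -4.07, -3.70, -3.92 and -3.56 on the 3x salt arrays. All salt arrays lay below all no-salt arrays, while the 1x salt array 2 lay within the 3x salt range. The 1x salt mean was 1.57 below the no-salt mean (log2 difference -1.57, SE 0.23), with -0.90, -2.22 and -1.35 within slides 1, 2 and 4.

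NAS4 fell by 2.22 on the log2 scale after 3x salt (SE 0.22, 95% interval -2.70 to -1.74, limma adjusted p = 4.21e-05). Within slides 1 and 6 it fell by 1.96 and 2.20. The call held in all 22 alternatives (adjusted p 1.58e-05 to 0.0228, difference -2.39 to -1.65), including the fit with the closest arrays averaged. From 1x salt to 3x salt NAS4 differed by -0.65 (SE 0.23, limma adjusted p = 0.0493), and the groups overlapped. That call was lost in 17 of 22 alternatives, with differences of -0.33 to -0.89 over all 22. Among them it was lost when the no-salt array 2, 3 or 4, the 1x salt array 1 or 3, or any 3x salt array was omitted, with adjusted p of 0.0511 to 0.161. In the authors' deposited table NAS4 read 9.11 to 9.85 without salt, 7.64 to 8.30 after 1x salt and 7.34 to 7.91 after 3x salt.

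NAS3 had a log2 signal of 1.19 to 1.36 on the 4 arrays without salt. After 1x salt it was 1.23, 1.44 and 1.78. After 3x salt it was 0.86, 1.03, 0.85 and 0.98, below every other array. The 1x salt mean differed from no salt by 0.18 (SE 0.12), and the groups overlapped. The 3x salt mean was 0.37 below no salt (log2 difference -0.37, SE 0.11, limma adjusted p = 0.018). It was 0.55 below 1x salt (log2 difference -0.55, SE 0.12, limma adjusted p = 0.00531). The difference from no salt was -0.33 and -0.32 within slides 1 and 6, and -0.41 without the no-salt array 1 (limma adjusted p = 0.0222). With slide as a fixed block NAS3 lost both calls (adjusted p = 0.143 and 0.0969), and likewise with the closest arrays averaged (0.26 and 0.0915), a fit that called 12.1% of all genes from 1x to 3x salt.

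NAS2 was not well above background on any of the 11 arrays, with processed signals of 4.04 to 9.40 units. The 3 synthase genes that passed the detection filter were thus all called lower after 3x salt than without salt. The NAS1 and NAS3 calls were lost with the closest arrays averaged, and that of NAS3 also with slide as a fixed block. Over all genes 23.6% were called lower for 3x salt against no salt. On the same arrays 5 of 5 mesophyll markers were lower after 3x salt by limma's test (summed linear signal relative to the 75th percentile 331 to 397, against 484 to 701 without salt). The summed signal of 13 vascular markers was 74.4 to 93.1 without salt, 120 to 150 after 1x salt and 92.1 to 102 after 3x salt. The part of either in the differences of the synthase genes was not tested.

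**Figure D2:**
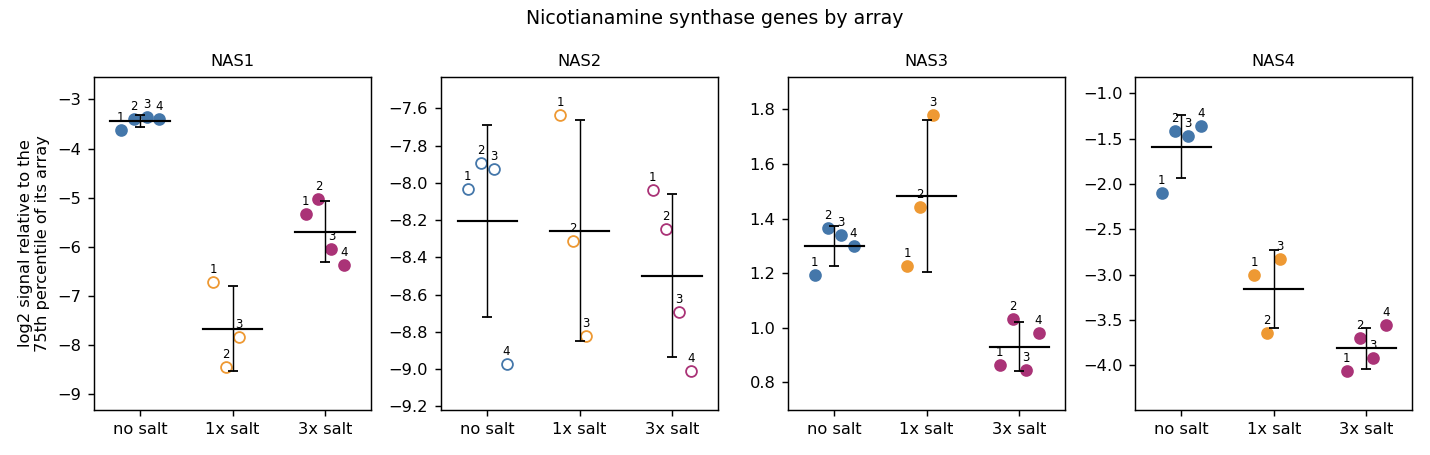
Log2 signal relative to the 75th percentile of the array (vertical axis) for the 4 nicotianamine synthase genes in each group, with 1 numbered point per array, the mean and the SD as a bar. Open points are not well above background. Each panel has its own scale. NAS1 is lowest after 1x salt, NAS4 is lower in both salt groups, and NAS3 is lowest after 3x salt.

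For the ferritin genes all differences on the brightest probes were within 0.35 of 0 on the log2 scale. The brightest FER1 probe had a log2 signal of 3.42, 3.72, 3.68 and 3.85 without salt. It was 3.52, 3.36 and 3.50 after 1x salt, and 3.44, 3.45, 3.14 and 3.25 after 3x salt. The no-salt array 1 lay within the range of the salt arrays, so the groups overlapped. 1x salt differed from no salt by -0.21 (SE 0.12). 3x salt was 0.35 below no salt (log2 difference -0.35, SE 0.11, limma adjusted p = 0.0205), with 0.02 within slide 1 and -0.60 within slide 6. Without the no-salt array 1 it was -0.43 (limma adjusted p = 0.00597). The call was lost in 8 of 22 alternatives, among them both quantile-based normalisations (adjusted p = 0.0693 and 0.0641), slide as a fixed block (0.193) and the closest arrays averaged (0.286). It was also lost without the no-salt array 2 or 4 or the 3x salt array 3 or 4 (0.0523 to 0.059).

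The other FER1 probes gave larger differences. Probe 2 read 1.88 to 2.23 without salt, 1.80 to 1.96 after 1x salt and 1.42 to 1.68 after 3x salt. Probe 3 read -1.44 to -1.13 without salt, -1.63 to -1.23 after 1x salt and -2.17 to -1.67 after 3x salt. On both, all 3x salt arrays lay below all other arrays. In a fit over all 31439 probes above the filter, 3x salt against no salt gave -0.35, -0.56 and -0.69 for the 3 probes (limma adjusted p = 0.0216, 0.000999 and 0.00159). Against 1x salt the differences were -0.14, -0.34 and -0.50 (limma adjusted p = 0.372, 0.0293 and 0.0182), so the brightest probe did not pass where the others did.

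FER4 had, on its brightest probe, the smallest differences of the 7 tested genes in all 3 comparisons. That probe read 2.34, 2.46, 2.43 and 2.28 without salt. It read 2.06, 2.38 and 2.43 after 1x salt, and 2.13, 2.41, 2.06 and 2.20 after 3x salt. The groups overlapped, with differences from no salt of -0.09 (SE 0.11) after 1x salt and -0.18 (95% interval -0.41 to 0.06, limma adjusted p = 0.181) after 3x salt. Without the 1x salt array 1 the first of these was 0.02. The second FER4 probe read 1.01 to 1.07 without salt, 0.66 to 0.99 after 1x salt and 0.58 to 0.79 after 3x salt. Its 3x salt arrays lay below all no-salt arrays, a difference of -0.33 (SE 0.09, limma adjusted p = 0.00918 over all probes). The mean of the FER4 probes (-0.26, adjusted p = 0.0406) and the authors' deposited table (-0.31, adjusted p = 0.0466, with 32.5% of its loci called) passed as well.

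**Figure D3:**
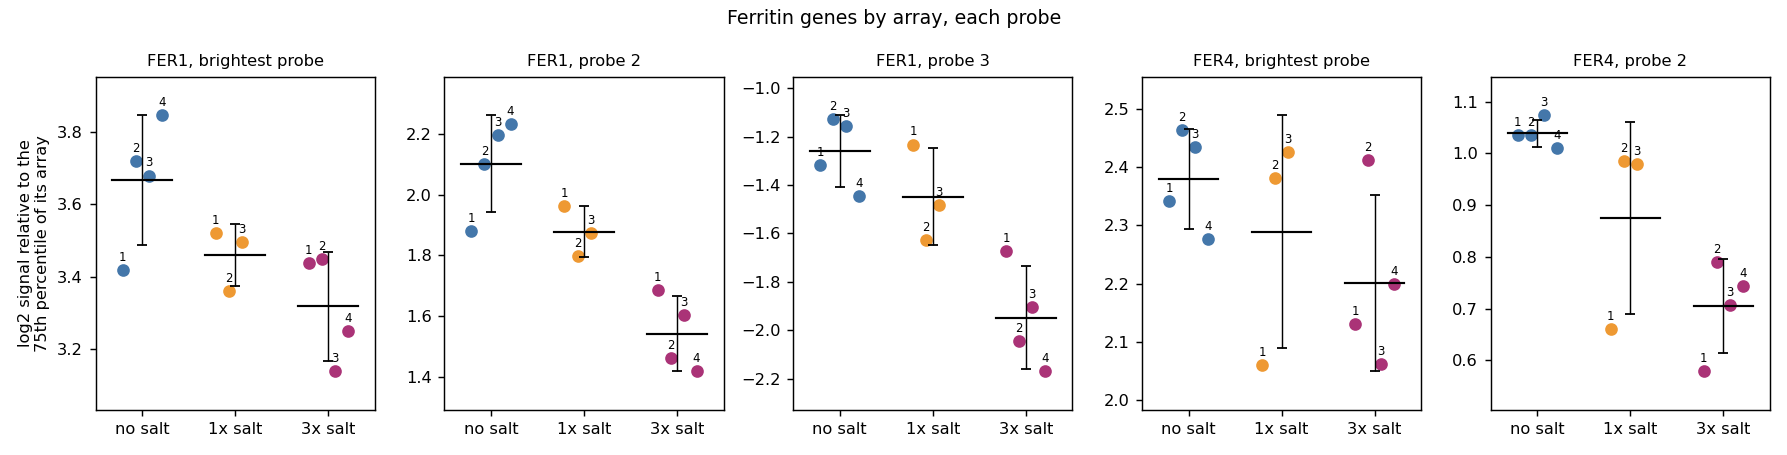
Log2 signal relative to the 75th percentile of the array (vertical axis) for each probe of FER1 and FER4 in each group, with 1 numbered point per array, the mean and the SD as a bar. Each panel has its own scale. On FER1 probes 2 and 3 and FER4 probe 2 every 3x salt array lies below every no-salt array, which does not hold for the brightest probes.

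Over the set, 3x salt against no salt called 4 of the 7 tested genes lower (NAS1, NAS3, NAS4 and FER1) and 0 higher by limma's test (4 lower and 1 higher at an unadjusted p below 0.05). Across all genes that comparison called 51.5%, with 23.6% lower and 27.9% higher, so the count of lower calls must be read against a large background. The median difference of the 7 genes was -0.35, against 0.04 over all genes. Of the 6 genes tested for 3x salt against 1x salt, 2 were called lower (NAS3 and NAS4) and 0 higher (3 and 0 at an unadjusted p below 0.05), where 38.8% of all genes were called, 19% lower and 19.8% higher. In the comparison that chose NAS1, among the 7 genes above the filter the groups did not overlap for NAS4, which was lower, and for 2 that were higher (bHLH38 and bHLH101). The NAS1 groups did not overlap there either, but NAS1 was chosen for that fall and is not counted. For bHLH100, below the filter, the log2 signals were separated only narrowly (lowest after 1x salt -7.04, highest without salt -7.09). Its processed intensities overlapped, and of these arrays only the 1x salt array 3 was above background. Over all genes 13% were lower without overlap and 16.8% higher without overlap there.

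**Figure D4:**
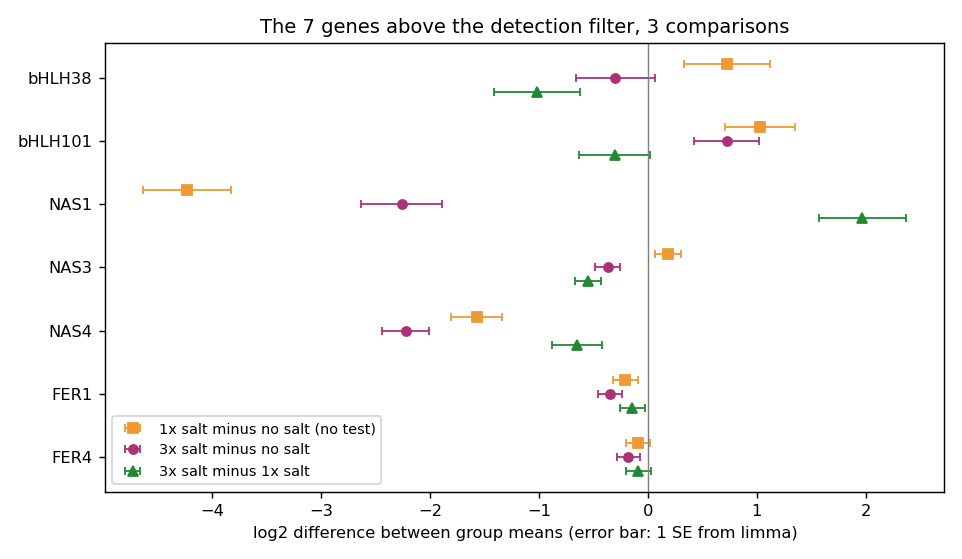
Log2 differences between group means (horizontal axis) for the 7 genes that passed the detection filter, with bars of 1 SE from limma, for 3 comparisons that share arrays. NAS1 and NAS4 lie far below 0 against no salt in both salt groups, while FER1 and FER4 lie within 0.35 of 0.

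The wider iron pathway was followed with a list of 59 other genes, of which 57 were on the array and 48 were tested. After 1x salt 8 were higher and 4 lower by limma's test, where 16.9% of all genes were called, 9.24% higher and 7.7% lower. After 3x salt 11 were higher and 11 lower than without salt, a share below the 51.5% of all genes. From 1x salt to 3x salt 6 rose and 8 fell, also a share below that of all genes (38.8%, with 19.8% higher and 19% lower). The list's medians were -0.01, -0.04 and -0.05, against 0.04, 0.04 and 0.01 over all genes. Without the 1x salt array 1 the first count was 20 instead of 12, and the third was 9 instead of 14. With the closest arrays averaged first the counts were 0 (10 higher and 4 lower at an unadjusted p below 0.05), 5 and 3, and with slide as a fixed block 2, 13 and 3.

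Among the regulators, the partner of the Ib bHLH factors, FIT, was 0.97 lower after 3x salt than without salt (log2 difference -0.97, SE 0.16, limma adjusted p = 0.000872), and its 1x salt difference was -0.48 (adjusted p = 0.0941). Without the 1x salt array 1 that difference was -0.73 and passed (limma adjusted p = 0.00268), and without array 3 it was -0.30 (adjusted p = 0.312). PYE, a bHLH repressor of NAS4 and other iron genes, was lower after 1x salt (-0.51, SE 0.09, limma adjusted p = 0.0049). It was also lower after 3x salt than without salt (-0.28, SE 0.08, limma adjusted p = 0.0168). URI, a bHLH factor upstream of the Ib genes, was higher after 1x salt (0.61, SE 0.08, limma adjusted p = 0.0014). BTS, an E3 ligase that restrains the iron deficiency response, was higher after 3x salt (0.68, SE 0.14, limma adjusted p = 0.00261). With the closest arrays averaged the 3x salt calls of FIT and BTS were lost (limma adjusted p = 0.0602 and 0.0532). So were the 1x salt calls of PYE and URI (0.123 and 0.0746), and that of PYE also with slide as a fixed block (0.064). The 3x salt call of PYE was not followed in the alternatives.

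The IRON MAN peptides IMA1 and IMA2, which promote iron uptake and are encoded side by side, were higher after 1x salt than in either other group. IMA1 rose by 1.36 after 1x salt (SE 0.25, limma adjusted p = 0.00642) and was lower after 3x salt than after 1x salt (log2 difference -1.302, adjusted p = 0.00297), while 3x salt and no salt differed by 0.06 (adjusted p = 0.84). IMA2 rose by 1.43 (SE 0.27, limma adjusted p = 0.00745) and then differed by -0.98 (adjusted p = 0.018), which did not pass without the 1x salt array 1 (adjusted p = 0.0711). The 1x salt calls of IMA1 and IMA2 were lost with slide as a fixed block (limma adjusted p = 0.0862 and 0.0828) and with the closest arrays averaged (0.088 and 0.0975), where 0.435% of all genes were called. The calls from 1x to 3x salt were lost with slide as a fixed block for IMA1 and IMA2 (limma adjusted p = 0.0915 and 0.203), and for IMA2 also with the closest arrays averaged (0.128). FIT, BTS, IMA2, FRO6 and FER3, FER2 after 1x salt and PYE after 3x salt are named here after their values were seen.

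Among uptake and transport genes, NRAMP1, an iron and manganese importer, rose by 0.98 after 1x salt (limma adjusted p = 0.000495) and by 0.92 after 3x salt (adjusted p = 6.11e-05). The mitochondrial iron importers MIT1 and MIT2 were higher after 3x salt by 0.93 and 0.85 (SE 0.10 and 0.11, limma adjusted p = 5.7e-05 and 0.000172). The leaf ferric reductases FRO6 and FRO7 were lower after 3x salt (log2 differences -0.94 and -1.12, limma adjusted p = 0.00614 and 0.000715). YSL3, a transporter of iron bound to nicotianamine, was lower after 3x salt than after 1x salt (-0.55, limma adjusted p = 0.00298). F6'H1, an enzyme of coumarin synthesis, was not well above background on any 1x salt array and was at least 1.60-fold lower there than without salt. Its limma call (adjusted p = 0.0071) is not a test of that bound, since it took those 1x salt values as they stood. With the closest arrays averaged the 1x salt calls of NRAMP1 and F6'H1, the FRO6 call and the YSL3 call were lost (limma adjusted p = 0.0643, 0.0823, 0.0972 and 0.0543), and that of F6'H1 also with slide as a fixed block (0.0694). The root importers IRT1 and IRT2 were not well above background on any array.

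The ferritins outside the set differed in direction. FER2, known as the seed ferritin, rose by 1.03 after 1x salt (SE 0.22, limma adjusted p = 0.0124) and by 2.27 after 3x salt (SE 0.21, adjusted p = 3.08e-05). FER3 was 0.31 lower after 3x salt (log2 difference -0.31, SE 0.10, limma adjusted p = 0.0231) with overlapping groups, and that call was lost in 8 of 22 alternatives, among them without the no-salt array 2, 3 or 4 or the 3x salt array 1 or 2 (adjusted p 0.0546 to 0.0674). In iron-sulphur assembly, SUFE1, which activates the plastid cysteine desulfurase, rose by 0.38 after 1x salt (limma adjusted p = 0.00701). HCF101, a plastid scaffold protein, was lower after 3x salt (-0.70, limma adjusted p = 0.000496). The 1x salt calls of FER2 and SUFE1 were lost with slide as a fixed block (limma adjusted p = 0.0594 and 0.0785) and with the closest arrays averaged (0.122 and 0.126), and in the latter fit the HCF101 call was lost too (0.0519).

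**Figure D5:**
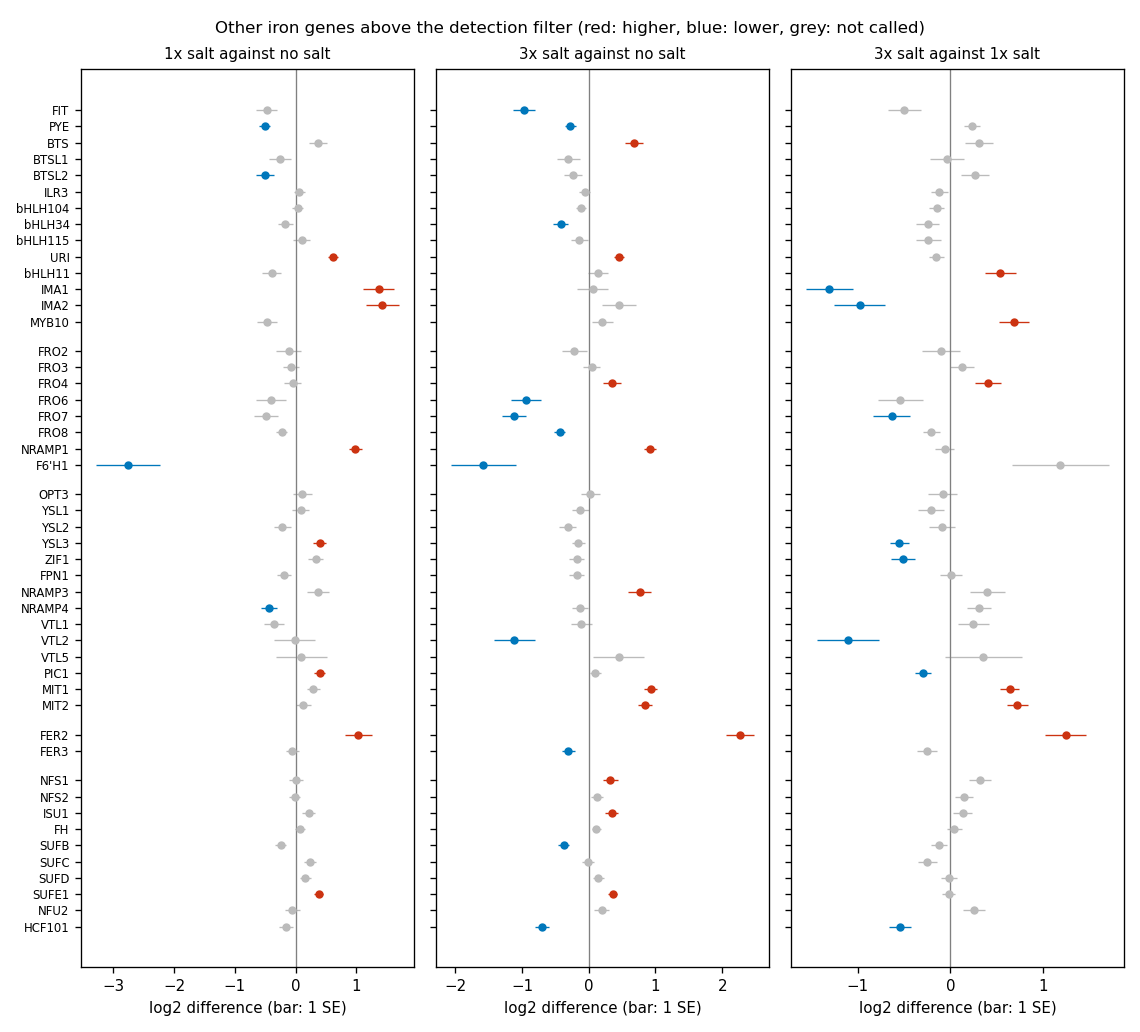
Log2 differences (horizontal axis, bars of 1 SE) of the 48 other iron genes that passed the detection filter in 3 comparisons, grouped by role. Red is higher and blue lower by limma's adjusted p below 0.05, and grey did not pass. FER2 rises most after 3x salt (2.27), and IMA1 and IMA2 are higher after 1x salt and lower from 1x to 3x salt.

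Nicotianamine is made from S-adenosylmethionine, so 13 genes of methionine salvage and S-adenosylmethionine synthesis were counted by limma's test, all of them above the filter. After 1x salt 1 was higher (SAM1, a synthetase, 0.44) and 1 lower (ARD3), where 9.24% and 7.7% of all genes were. ARD3, an acireductone dioxygenase of methionine salvage, differed by -5.61 after 1x salt and by -5.56 after 3x salt, stated as values with no test. It was well above background on all 4 no-salt arrays but on 1 array in each salt group, and with normexp and quantile normalisation both differences were -2.68. It thus passed the detection filter only with the no-salt arrays. Its limma calls, which the counts here include, took salt values below background as they stood. After 3x salt 3 were lower and 0 higher (4 and 0 at an unadjusted p below 0.05), where 23.6% and 27.9% of all genes were, the others being MTN2, a nucleosidase of the same cycle (-0.46), and MAT3, a synthetase (-0.60). From 1x salt to 3x salt 3 were lower and 0 higher, also at an unadjusted p below 0.05 (MTN2, -0.44; SAM1, -0.29; ARD2, -0.20). Over all genes 19% were lower there. The last SAM1 and ARD2 calls were lost in 15 and 17 of 22 alternatives, and that of MTN2 with slide as a fixed block (limma adjusted p = 0.0553). The 1x salt call of SAM1 was lost with normexp, in the authors' deposited table and with the closest arrays averaged (limma adjusted p = 0.109, 0.0846 and 0.154), and the MAT3 call in the last of these (0.109).

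Of 16 zinc and copper deficiency genes, 12 were tested with limma. After 1x salt 0 were called (2 higher and 1 lower at an unadjusted p below 0.05). After 3x salt 3 were higher, the copper chaperone CCS (0.87), the zinc deficiency regulator bZIP23 (0.58) and the copper-zinc superoxide dismutase CSD1 (0.28). Also after 3x salt 3 were lower, the iron superoxide dismutase FSD1 (-1.06), the copper importer COPT1 (-0.42) and the zinc transporter ZIP1 (-0.64). These 6 of 12 stand beside 51.5% of all genes. With the closest arrays averaged CSD1, COPT1 and ZIP1 lost the call (limma adjusted p = 0.127, 0.0569 and 0.125). From 1x salt to 3x salt CCS (0.65) and bZIP23 (0.54) were higher, and FSD1 (-1.18) and ZIP1 (-0.54) were lower, 4 of 12 beside 38.8% of all genes. The ZIP1 call from 1x salt to 3x salt did not pass without the 1x salt array 1 (limma adjusted p = 0.0532), with slide as a fixed block (0.116), with the compared groups alone (0.0564) or with the closest arrays averaged (0.148).

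Markers of guard cells and of other cell types differed between the groups in which the iron genes differed. Of 13 vascular markers 10 were higher and 0 lower after 1x salt, 2 were higher and 4 lower after 3x salt, and 0 were higher and 10 lower from 1x to 3x salt. Over all genes the shares were 9.24% higher and 7.7% lower, 27.9% higher and 23.6% lower, and 19.8% higher and 19% lower in those comparisons. All 13 were above background on every array except 1 of the 1x salt arrays, where 12 were. Of the 11 guard cell markers 2 were higher after 1x salt, and 1 was higher and 5 were lower after 3x salt. From 1x to 3x salt 1 guard cell marker was higher and 7 were lower. Of 5 mesophyll markers 0 were called after 1x salt. All 5 were lower after 3x salt than in either other group. With the closest arrays averaged first, 0, 6 and 11 of the 33 markers tested were called in the 3 comparisons, with 15 higher and 0 lower after 1x salt at an unadjusted p below 0.05. Of 5 pavement cell and trichome markers 4 were above background on each array. The part of these cell types in the bHLH101, IMA and NAS differences was not tested.

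The genes whose pattern was closest to NAS1 by Pearson's r over the 11 arrays, among 19311 loci, were AT1G67360 (0.981), AT4G38560 (0.978), NAC090 (0.975) and AT4G17250 (0.974). NAC090, a NAC family transcription factor gene, averaged -0.69, -4.12 and -2.84 in no salt, 1x salt and 3x salt. For bHLH101 they were ATL5 (0.952), AT5G08670 (0.95), HB31 (0.946) and GBF2 (0.945). For FER1 they were AT2G27080 (0.955), FLS1 (0.952), TLP3 (0.946) and AT5G52020 (0.945), of which FLS1, a flavonol synthase gene, averaged -1.13, -1.92 and -2.69. These values describe arrays that share groups and slides.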

How the data were processed

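RNA (100 ng per sample, labelled with Cy3) from 11 samples was hybridised to 1-colour Agilent arrays, per the labels' protocols. The deposited scanner files hold a background-subtracted processed signal per spot in intensity units, written by version 11.5.1.1 of Agilent's Feature Extraction, per the file headers. The authors' deposited table gives 1 value per locus on a log2 scale, as judged against the scanner values (each of its 11 columns followed its own array most closely, r 0.79 to 0.931, column medians 8.29 to 8.34). How its background was corrected and how it was normalised and centred is not stated.

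Here log2 of the processed signal minus the 75th percentile of each array was used. Control and outlier spots were left out, and the brightest probe stood for a locus. Of 43603 probes, 34348 were matched to 25410 loci through a RefSeq gene table (assembly TAIR 10.1, file headers TAIR 10), so no coordinates are given. Genes well above background on at least 3 arrays (23443 of 34290) entered 1 limma 3.58.1 fit (R 4.3.3) over 11 arrays, with Benjamini-Hochberg adjustment over all genes and a threshold of 0.05. A gene not above background in a group is given as "at least", with its arrays at the lowest signal above background or at their own, whichever is higher. On simulated data of 23443 genes, 200 of them changed, 72% of genes changed by 1 on the log2 scale were recovered in the 1x salt comparison with no salt. In that of 3x salt 75% were recovered (29% and 39% at 0.5). A far larger share of genes was called in the data themselves (16.9% and 51.5%), so these recoveries do not give the power of the 2 comparisons. The number of arrays limits the precision.

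The 6 slides were all scanned within 1 day. Slide 1 carried array 1 of each group, slide 2 no-salt 2 and 1x salt 2, slide 3 3x salt 2, slide 4 no-salt 3 and 1x salt 3, slide 5 3x salt 3, and slide 6 no-salt 4 and 3x salt 4. The alternatives were normexp (offset 50) with quantile normalisation, quantile normalisation alone, the authors' deposited table, the mean of all probes, other detection filters, slide and replicate number as blocks, the compared groups alone, averaging close arrays, and leaving out each array. The members and gene lists were chosen with earlier results of these data known. All members were named, with up to 6 genes per list and comparison of the smallest adjusted p, and the 4 genes most like NAS1, bHLH101 and FER1.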

Additional observations from a re-analysis of the deposited data

Results flagged for a closer look

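In 5 of 20 groups of 4 arrays (each gene without salt or after 3x salt), 1 array stood apart from the other 3 by more than Dixon's 95% limit. Chance gives about 1 in 20 for independent groups, but these genes share the same arrays, so the count cannot be set against that rate. All 5 lay on the no-salt array 1 or 4. The no-salt array 1 was lowest of its group for bHLH101 (-4.30), NAS1 (-3.62) and NAS4 (-2.10), all log2 signals relative to the array's 75th percentile. Without that array the 3x salt differences from no salt were 0.55 for bHLH101, -2.32 for NAS1 and -2.39 for NAS4. The no-salt array 4 was lowest for bHLH39 (-9.27) and NAS2 (-8.97), genes that no array measured well above background.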

How the results depend on the processing

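With slide as a fixed block, 1044, 7974 and 2796 genes were called for 1x against no salt, 3x against no salt and 3x against 1x salt, in place of 3969, 12069 and 9101. The counts of other iron genes were then 2, 13 and 3 in place of 12, 22 and 14, and those of the described genes 2 and 0 in place of 4 and 2. With close arrays averaged, all genes gave 102, 3595 and 2835, iron genes 0, 5 and 3, and described genes 1 and 0. That fit averaged the no-salt arrays 2, 3 and 4, and the 3x salt arrays 1 with 2 and 3 with 4. The no-salt and 3x salt groups kept 2 values each, and the 3 1x salt arrays were not averaged. The iron gene count of 0 after 1x salt thus rests on 2 no-salt values. The authors' deposited table called 2622 genes for 1x against no salt. For 3x against 1x salt, the compared groups alone gave 9 iron genes and 1 described gene, and normexp with quantile normalisation and quantile normalisation alone gave 1 described gene each. Leaving out 1 array gave 2281 to 5579, 10441 to 12765 and 7450 to 9132 genes, 9 to 20, 18 to 23 and 9 to 17 iron genes, and 3 to 4 and 1 to 2 described genes. The 1x count of genes fell most without the 1x salt array 3 (2281), the no-salt array 3 (2524) and the 1x salt array 2 (2569). The sign turned for bHLH38 in 1x against no salt with normexp (-0.020) and in the deposited table (-0.058). For FER4 the same difference ranged from -0.16 to 0.025 when 1 array was left out, above 0 without 1x salt replicate 1, and the bHLH38 difference of 3x from no salt, not called, from -0.63 to 0.032, above 0 without 3x salt replicate 3. For NAS1, 3x against 1x salt gave 0.51 with normexp and 1.07 in the deposited table, and for bHLH38 quantile normalisation gave 0.27 for 1x against no salt. These causes were not tested. Signal near background limits NAS1 after 1x salt, bHLH38, bHLH39, bHLH100 and NAS2.

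Same-numbered samples correlated in their deviations at 0.0931 to 0.145, 0.00993 to 0.233 and -0.119 to 0.301. These values were low, yet samples correlated best with their own number in 6 of 6, 7 of 8 and 4 of 6 cases. Whether the numbers pair the samples is not settled by these values. The replicate block gave 3274, 12614 and 9084 genes, 13, 23 and 17 iron genes, and 4 and 2 described genes.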
